A study of Mus musculus with 12 samples.

Results

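The 38 genes described here encode the machinery that copies DNA and the factors that admit a cell to S phase. They were chosen by symbol from a fixed list covering replication licensing, the fork, nucleotide synthesis, chromatin assembly and G1/S control, and each of the 38 had 1 row in a table of 37748 genes. All 38 passed the filter on low counts, as did 16679 genes in all. Expression was measured by poly(A) RNA-seq of gastrocnemius muscle from 12 mice aged 13 weeks, 3 mice in each of 4 groups and 1 library per mouse. Control mice were ACTA1-MCM/+, which carry a tamoxifen-inducible Cre recombinase (MerCreMer) under a skeletal muscle actin promoter, and were labelled as having had no tamoxifen (TMX). FLExD/+ mice (FLExDUX4/+) carried only the conditional human DUX4 transgene at Rosa26, which Cre recombination switches on, also without TMX. The moderate and severe FSHD-like models, which model facioscapulohumeral muscular dystrophy (FSHD), carried both transgenes (FLExDUX4/+;MCM/+) and were given intraperitoneal TMX, as 1 injection of 5 mg/kg in the moderate model and 2 injections of 10 mg/kg on consecutive days in the severe model. Per the study's text, muscles of both models were taken on day 9. Recombination is mosaic in the bi-transgenic muscle, so each library mixes fibers with and without DUX4 and every other cell of the tissue. By the labels neither single-transgenic group received TMX, so the bi-transgenic genotype and TMX cannot be told apart here. The study's text lists TMX-injected ACTA1-MCM/+ mice as controls of its models, and does not state the treatment of the control mice that were sequenced.

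The labels call the FLExD/+ libraries mild pathology, although their strain lacks Cre; the group is named by its strain here. Reads of Esr1, part of which is present in MerCreMer, ran from 8762 to 17274 expected counts in control and 554 to 786 in FLExD/+ mice. They ran from 3041 to 3786 in moderate and 1475 to 1586 in severe mice, so by count the libraries without the transgene were the lowest. Library depth was 23796902 to 29136403 counts. Levels are given as CPM, read counts divided by a library size that TMM factors had adjusted; the factors ran from 0.706 to 0.760 in control and FLExD/+, 1.06 to 1.13 in moderate and 1.69 to 1.87 in severe libraries. In CPM, mean Esr1 was 652 ± 206 (SD) in control, 31.7 ± 5.49 in FLExD/+, 111 ± 13.9 in moderate and 36.1 ± 1.17 in severe mice. On this scale FLExD/+ and severe mice were thus close. The 20 genes with the most counts took 56.8% to 58.5% of the counts in the 6 single-transgenic libraries and 30.4% to 33.2% in the severe ones. Changes below are therefore relative to this scaling, under which the median log2 fold change of all genes tested was 0.04 in moderate and 0.08 in severe versus control, against 0.65 and 1.39 on library size alone.

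In a dividing cell, the origin recognition complex, CDC6 and CDT1 load the ring-shaped MCM2-7 helicase on DNA in G1, and CDC45, GINS and MCM10 turn it into a moving helicase in S phase. DNA polymerase alpha-primase starts each strand, polymerases delta and epsilon extend it, PCNA clamps the polymerase to its template, and FEN1 and DNA ligase 1 join the lagging-strand fragments. Many of these genes are transcribed in late G1 by E2F factors, which are released when cyclin-CDK complexes phosphorylate RB family proteins. Nuclei of mature muscle fibers have left the cell cycle, whereas satellite cells, immune cells, endothelial cells and fibroblasts in muscle can divide.

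Promoters are shown here because the E2F element is the best known sequence of this gene set. Of the 38 genes, 31 matched by symbol a RefSeq promoter window of 300 bases, from 250 bases before the transcript start to 50 after it (GRCm38.p6), with 36 windows in all; Mcm4, Gins1, Gins2, Pole, Rfc2, Prim2 and Ccne2 did not. The E2F element was searched as the words TTTGGCGC, TTTCGCGC, TTTCCCGC and TTTGCCGC on both strands, counting overlapping words separately. At least 1 word was found in 12 of the 31 genes (38.7%), against 2.60% of 27025 genes with a window. It held in 18 of 57 matched genes (31.6%) among other replication, nucleotide supply and G1/S genes. The CCAAT box, CCAAT on either strand, was found in 18 of the 31 genes (58.1%) and 41.1% of all genes. The word TTTGAA of the CHR element, which marks many G2/M genes, was found in 3 of the 31 (9.68%) and 20.2% of all genes. Windows of the members had a median GC content of 59.8%, against 52.7% in all windows. The part of base composition in these shares was not tested. Windows follow RefSeq transcript starts, and some lie inside the gene as annotated by GENCODE M21. Among them are the windows printed below for Uhrf1, Cdc6 and Lig1, and that of E2f1. Sequence before the GENCODE start of Cdc6 and E2f1 was thus not searched.

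The windows of the 4 E2F-word genes with the largest change in severe muscle and the 1 with the smallest are printed 5′ to 3′ on the gene's strand, with the E2F words in capitals. They lie at chr17:56304063-56304362 (Uhrf1, + strand), chr11:98907901-98908200 (Cdc6, + strand), chr8:75109259-75109558 (Mcm5, + strand), chr7:13278576-13278875 (Lig1, + strand) and chr7:44548766-44549065 (Pold1, - strand).
Uhrf1: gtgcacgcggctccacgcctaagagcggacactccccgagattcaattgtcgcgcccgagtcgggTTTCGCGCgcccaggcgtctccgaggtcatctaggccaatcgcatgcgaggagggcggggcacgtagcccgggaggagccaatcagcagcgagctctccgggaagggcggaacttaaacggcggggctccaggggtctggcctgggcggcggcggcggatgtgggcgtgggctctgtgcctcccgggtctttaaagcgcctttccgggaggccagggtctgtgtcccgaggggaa
Cdc6: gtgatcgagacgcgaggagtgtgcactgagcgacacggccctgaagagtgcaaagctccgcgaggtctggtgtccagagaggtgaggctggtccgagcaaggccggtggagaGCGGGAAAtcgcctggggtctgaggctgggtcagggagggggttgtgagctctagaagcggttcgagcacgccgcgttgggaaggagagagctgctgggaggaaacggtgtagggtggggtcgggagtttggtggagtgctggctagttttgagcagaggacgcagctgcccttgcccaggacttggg
Mcm5: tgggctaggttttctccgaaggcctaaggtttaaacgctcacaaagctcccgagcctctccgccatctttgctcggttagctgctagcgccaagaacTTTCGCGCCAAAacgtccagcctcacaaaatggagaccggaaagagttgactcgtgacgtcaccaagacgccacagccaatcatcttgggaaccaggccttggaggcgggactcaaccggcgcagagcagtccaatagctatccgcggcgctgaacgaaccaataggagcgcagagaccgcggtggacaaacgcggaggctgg
Lig1: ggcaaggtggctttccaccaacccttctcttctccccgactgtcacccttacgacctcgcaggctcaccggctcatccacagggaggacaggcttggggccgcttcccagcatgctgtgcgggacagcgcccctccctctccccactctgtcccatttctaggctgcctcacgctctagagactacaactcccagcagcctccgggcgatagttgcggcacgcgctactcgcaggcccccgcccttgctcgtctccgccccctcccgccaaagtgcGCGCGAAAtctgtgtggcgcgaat
Pold1: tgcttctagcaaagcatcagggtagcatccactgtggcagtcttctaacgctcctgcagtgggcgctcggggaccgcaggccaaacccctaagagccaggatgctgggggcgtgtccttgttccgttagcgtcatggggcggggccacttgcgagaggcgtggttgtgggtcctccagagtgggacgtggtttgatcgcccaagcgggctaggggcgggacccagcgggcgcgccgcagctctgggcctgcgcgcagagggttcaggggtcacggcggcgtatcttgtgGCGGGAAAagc
Counted from the transcript start, the words began at -185 in Uhrf1, -138 in Cdc6, 26 in Lig1 and 39 in Pold1, while Mcm5 held 2 overlapping words at -153 and -149. Uhrf1 has 2 windows and Lig1 has 3 in RefSeq, and in each gene 1 window held a word. Over the 12 genes with a word, the median log2 fold change in severe versus control muscle was 2.78 (range 0.90 to 6.34), and over the 19 without one it was 1.55 (range -1.14 to 5.98). The ranges overlap widely, as Rrm2, Ccne1 and Mcm10 were among the most increased genes and none of these words was in their windows.

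Most genes of replication and S-phase entry were higher in the muscle of both models, and more so in the severe one. In moderate versus control muscle, edgeR called 26 of 38 higher and 2 lower (adjusted p under 0.05 and a log2 fold change of at least 0.5 either way), where 24.4% of all genes tested were called higher and 17.0% lower. In severe versus control muscle 32 were higher and 2 lower, against 32.9% and 27.9% of all genes. The median change was 2.01-fold in moderate and 3.73-fold in severe mice. Compared directly, 29 of the 38 were higher in severe than in moderate mice and 0 lower, against 17.6% and 18.8% of all genes, with a median of 2.06-fold. The 3 genes with a lower value at an unadjusted p under 0.05 in that comparison were Rpa1, Rpa2 and Rrm1, which missed the fold threshold; DESeq2 and limma also called 0 lower. All 3 moderate mice lay above all 3 control mice in 28 of the 38 genes (32.6% of all genes), all severe above all control mice in 34 (40.0%), and all severe above all moderate mice in 33 (30.5%).

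**Figure D1:**
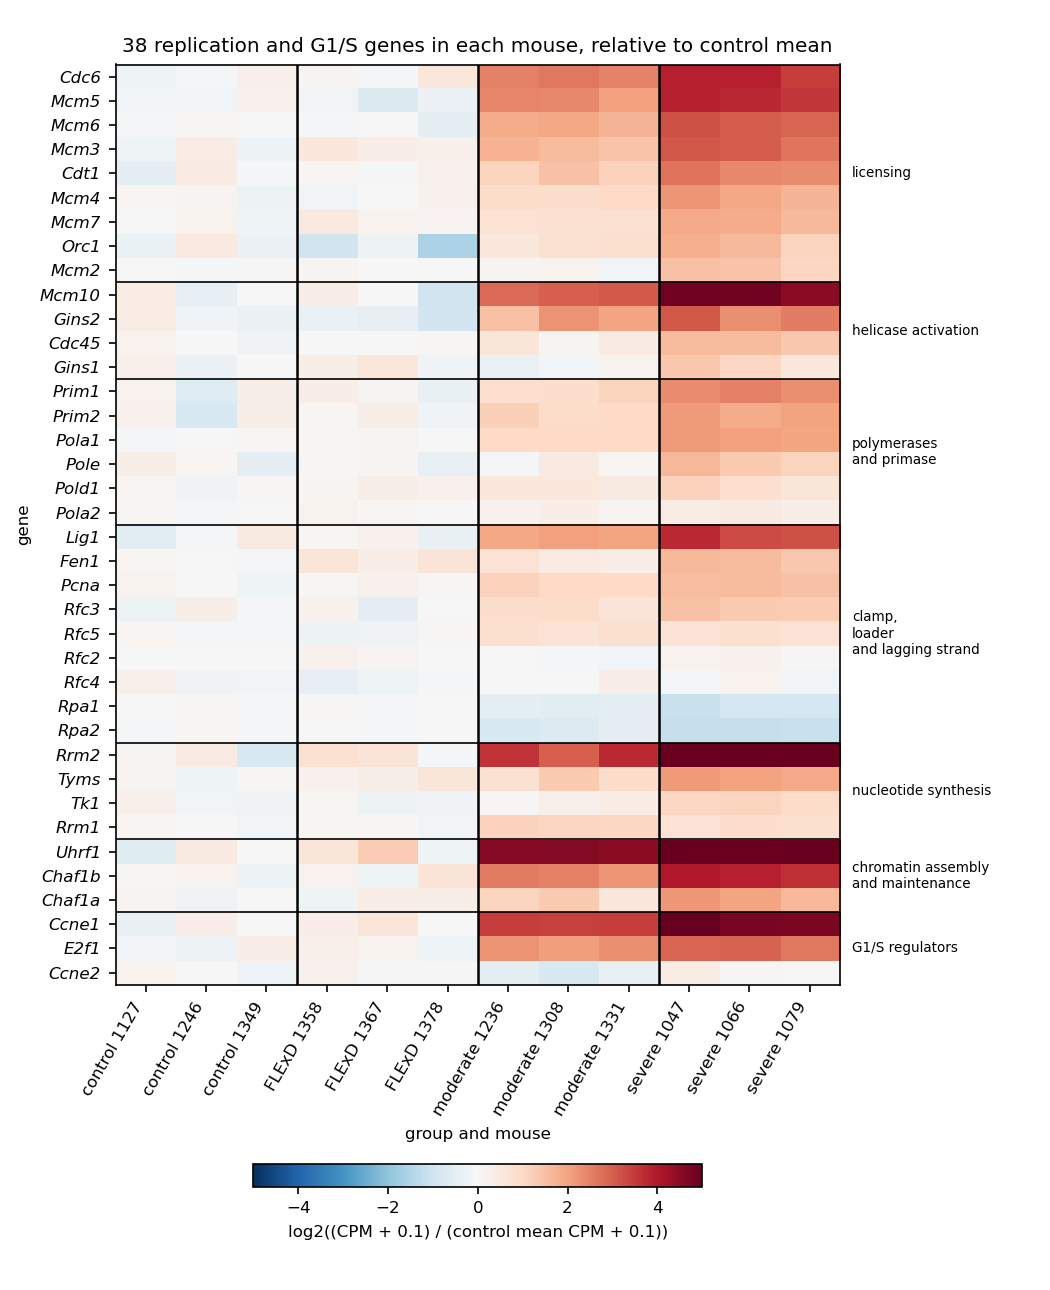
Heat map of 38 genes (vertical axis, ordered within each role by the severe change) in 12 mice (horizontal axis), with color for log2((CPM + 0.1)/(control mean CPM + 0.1)) and full color at 5 or more. Control and FLExD/+ mice are pale, most rows darken from moderate to severe mice, and Rpa1 and Rpa2 are blue.

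The counts depended on the scaling. On library size alone, 34, 36 and 35 of the 38 were called higher in the moderate, severe and severe versus moderate comparisons, with 0 called lower, but then 52.5%, 75.4% and 57.8% of all genes were called higher too. The median of the 38 exceeded the median of all genes by 0.97 log2 units in moderate and 1.82 in severe muscle, a difference that a factor per library leaves nearly as it is. On the log2(TPM + 1) scale, fitted with limma, it was 0.54 and 1.23. Between FLExD/+ and control mice, 0 of the 38 genes were called by edgeR, DESeq2 or limma, where edgeR called 1 of all genes tested (0.006%). That gene was Esr1, part of which is present in MerCreMer (log2 fold change -4.36 ± 0.23). The median log2 fold change of the 38 genes was 0.07, and 3 of them had an unadjusted p under 0.05. These were Fen1 and Tyms with higher and Orc1 with lower values. Fen1 CPM were 4.14, 3.85 and 3.65 in control and 5.95, 4.96 and 6.17 in FLExD/+ mice, without overlap (log2 fold change 0.55 ± 0.15, adjusted p = 1.0).

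**Figure D2:**
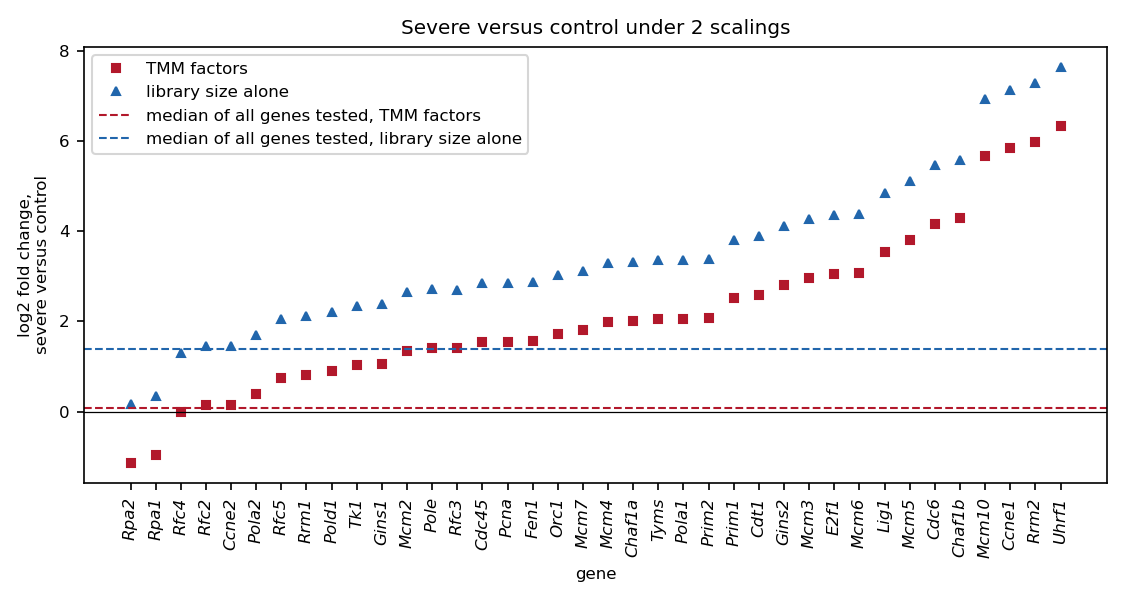
Log2 fold change of each gene in severe versus control mice (vertical axis) with TMM factors (squares) and library size alone (triangles), with genes in order along the horizontal axis and dashed lines at the median of all genes tested, 0.08 and 1.39. All 38 values are higher on library size alone, and Rpa1 and Rpa2 lie below 0 with TMM factors and just above 0 on library size alone.

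All 9 licensing genes of the list rose in severe muscle, and 7 of 9 in moderate, with Mcm2 and Orc1 below the threshold there. Over all genes tested, 32.9% were called higher in severe and 24.4% in moderate mice. Their median change was 2.46-fold in moderate and 5.99-fold in severe versus control mice, and each of the 9 was also higher in severe than in moderate mice. Cdc6, the loader that recruits the helicase to origins, changed most: its CPM were 0.207, 0.241 and 0.332 in control, 0.295, 0.248 and 0.434 in FLExD/+, 1.96, 2.14 and 1.89 in moderate and 5.19, 5.28 and 3.89 in severe mice. All 6 mice of the models lay above the 6 other mice, and the log2 fold change was 2.91 ± 0.28 (SE) in moderate and 4.17 ± 0.26 in severe versus control mice (adjusted p = 9.6e-07 and 4.1e-09). Mcm2, a subunit of the helicase ring, changed least: its CPM were 6.84, 6.26 and 7.02 in control, 7.43, 6.89 and 6.7 in FLExD/+, 7.29, 7.52 and 6.07 in moderate and 18.7, 18.2 and 14.2 in severe mice. The moderate values lay on both sides of the controls, with 2 above and 1 below all 3 of them, while the severe mice were all higher, with log2 fold changes of 0.05 ± 0.13 (SE) in moderate and 1.34 ± 0.13 in severe versus control mice (adjusted p = 0.76 and 2.8e-07). Cdt1, the second loading factor, rose 5.99-fold in severe mice. Orc1, the largest subunit of the origin recognition complex, rose 3.29-fold from a control mean of 0.488 CPM. The other genes of this complex were outside the list. With TMM factors Orc2, Orc3, Orc4 and Orc5 were not called in severe mice (log2 fold changes 0.03, -0.45, -0.22 and 0.06). On library size alone they were called higher, at 1.33, 0.85, 1.09 and 1.36, all under the median of 1.39 of all genes. At that scaling 75.4% of all genes were called higher. Orc6 was called higher with both scalings (1.11 ± 0.16 with TMM factors).

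The 6 subunits of the MCM ring, which act in equal numbers, were at unequal mRNA levels in control muscle and at closer levels in the models. Summed TPM (a level per transcript length, scaled to a common total) of Mcm2 to Mcm7 ran from 10.1 to 12.4 in control and 10.6 to 12.7 in FLExD/+ mice. It ran from 28.5 to 32.5 in moderate and 90.4 to 129 in severe mice. TPM carry no TMM factors, so this rise is not on the scale of the CPM changes above. The ratio of the highest to the lowest subunit was 6.66 to 12.5 in control mice and 10.8 to 14.9 in FLExD/+ mice. It was 3.18 to 4.45 in moderate and 2.82 to 3.21 in severe mice, so neither model overlapped the single-transgenic mice. Mcm7 made up 45.3% ± 3.86 (SD, n = 3) of the sum in control and 28.2% ± 1.06 in severe mice, and Mcm2 17.6% ± 2.87 and 9.54% ± 0.462. Shares were higher for Mcm5, from 5.06% ± 1.18 to 14.9% in severe mice, for Mcm6, from 11.2% ± 0.802 to 21.6% ± 0.675, and for Mcm3, from 8.82% ± 0.980 to 15.2% ± 0.648. The share of Mcm4 was 12% ± 0.940 in control and 10.7% ± 0.655 in severe mice. Shares within a library do not depend on its scaling, but Mcm7 shares exon positions with Cops6, Ap4m1, Mir25 and Mir93, and its reads may include theirs.

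**Figure D3:**
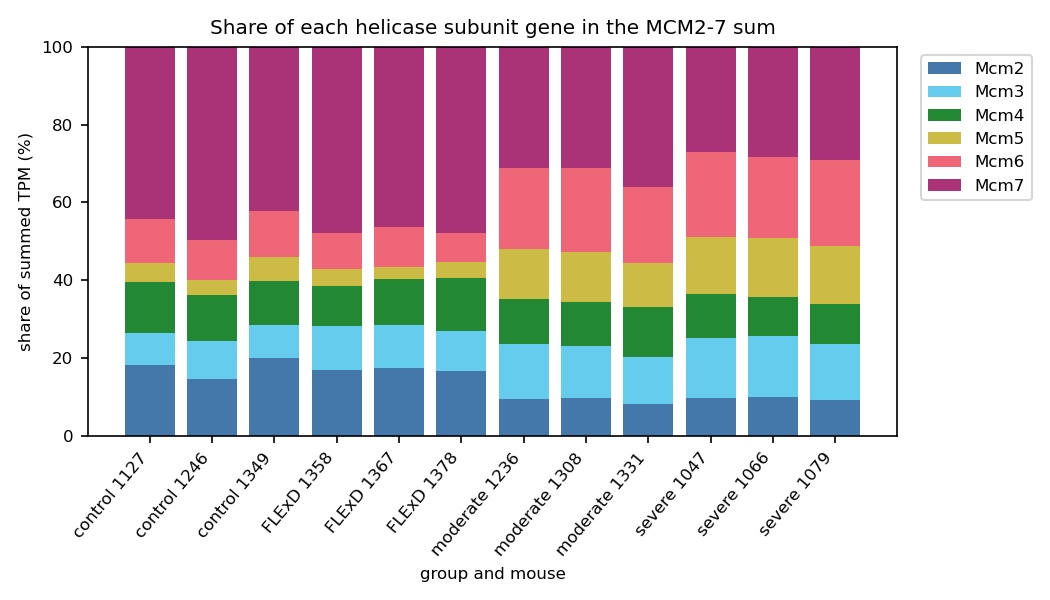
Stacked bars of the share of each gene in the summed TPM of Mcm2 to Mcm7 (vertical axis, percent) in each mouse (horizontal axis). Mcm7 takes 42.0% to 49.6% in control mice and 27.0% to 29.1% in severe mice, while Mcm3, Mcm5 and Mcm6 are wider in severe mice.

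The 4 listed genes that help to turn the loaded ring into a helicase rose in severe muscle (32.9% of all genes). Mcm10 and Gins2 also rose in moderate muscle (24.4% of all genes). Mcm10, which acts at helicase activation, went from near absence to a measurable level: its CPM were 0.155, 0.0482 and 0.0948 in control, 0.148, 0.0991 and 0 in FLExD/+, 1.33, 1.48 and 1.57 in moderate and 5.66, 5.5 and 4.4 in severe mice. The 3 control libraries held 6 counts in all, and the ratio of the summed counts to control, with its exact 95% interval for counting error alone, was 14.8 (6.64 to 41.2) in moderate and 53.0 (24.2 to 145) in severe mice. Gins1, a subunit of the GINS complex, changed least: its CPM were 1.45, 0.964 and 1.23 in control, 1.53, 1.83 and 1.06 in FLExD/+, 0.946, 1.1 and 1.37 in moderate and 3.22, 2.57 and 1.81 in severe mice. Control and moderate mice overlapped, and severe mice lay above both, although 1 FLExD/+ mouse lay above the lowest severe mouse, with log2 fold changes of -0.09 ± 0.29 (SE) in moderate and 1.06 ± 0.27 in severe versus control mice (adjusted p = 0.82 and 0.0029). Gins2, in the same complex, rose 4.03-fold in moderate and 6.96-fold in severe mice, and the TPM ratio of Gins1 to Gins2 was 2.35 to 2.69 in control, 3.73 to 5.31 in FLExD/+, 0.747 to 1.09 in moderate and 0.556 to 1.11 in severe mice. Of the GINS genes outside the list, Gins3 was called higher in severe versus control mice (1.44 ± 0.26) and Gins4 was not called (-0.36 ± 0.11). All severe mice lay below all controls for Gins4, which was at 0.94 and called higher on library size alone. At that scaling the median of all genes was 1.39. Cdc45, another component of the active helicase, rose 2.92-fold in severe mice and was 1.33-fold in moderate mice (adjusted p = 0.059).

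Of the 6 polymerase and primase genes, 4 rose in moderate (24.4% of all genes) and 5 in severe muscle (32.9%). Pola2 passed in neither. Prim1, the catalytic primase subunit, changed most: its CPM were 1.19, 0.626 and 1.28 in control, 1.33, 1.14 and 0.771 in FLExD/+, 1.92, 1.97 and 2.35 in moderate and 5.68, 6.44 and 5.51 in severe mice. Moderate and severe mice were all above the controls, with log2 fold changes of 1.01 ± 0.25 (SE) in moderate and 2.51 ± 0.23 in severe versus control mice (adjusted p = 0.0036 and 2.7e-07). Pola2, the accessory subunit of polymerase alpha, was the most even gene of the group: its CPM were 9.07, 8.05 and 8.91 in control, 9.69, 9.27 and 8.63 in FLExD/+, 10.2, 10.9 and 9.59 in moderate and 11.2, 11.9 and 11 in severe mice. All moderate and all severe mice lay above the controls, but the log2 fold changes of 0.24 ± 0.10 (SE) in moderate and 0.39 ± 0.09 in severe versus control mice (adjusted p = 0.051 and 0.0022) were under the fold threshold. Its partner Pola1, the catalytic subunit, rose 2.01-fold and 4.18-fold, and the TPM ratio of Pola2 to Pola1 was 2.01 to 2.13 in control, 1.81 to 2.24 in FLExD/+, 1.34 to 1.38 in moderate and 0.918 to 0.957 in severe mice. Pold1 and Pole, the catalytic subunits of the polymerases that extend the strands, were 1.87-fold and 2.63-fold higher in severe mice.

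Genes of the clamp, its loader and the lagging strand went in both directions. In severe muscle 5 of the 9 rose, 2 fell and 2 did not pass, where 32.9% of all genes rose and 27.9% fell. In moderate muscle these counts were 5, 1 and 3, where 24.4% of all genes rose and 17.0% fell. Lig1, the ligase that seals lagging-strand fragments, changed most: its CPM were 0.622, 0.915 and 1.37 in control, 1.03, 1.14 and 0.723 in FLExD/+, 4.01, 4.38 and 4.11 in moderate and 14.2, 10.2 and 9.59 in severe mice. Every mouse of the models was above every single-transgenic mouse, with log2 fold changes of 2.09 ± 0.25 (SE) in moderate and 3.53 ± 0.24 in severe versus control mice (adjusted p = 8.9e-06 and 1.0e-08). Pcna, the sliding clamp, had the highest mean TPM of the 38 over the 12 mice: its CPM were 20.5, 18.3 and 15.8 in control, 19.2, 21.4 and 19.2 in FLExD/+, 40.1, 36.7 and 36.3 in moderate and 53.9, 55.1 and 50.5 in severe mice. The 3 groups of control, moderate and severe mice did not overlap, and log2 fold changes were 1.05 ± 0.10 (SE) in moderate and 1.55 ± 0.10 in severe versus control mice (adjusted p = 6.7e-07 and 4.4e-09). Severe and moderate mice differed by 0.50 ± 0.09 in Pcna (adjusted p = 5e-04), just under the fold threshold before rounding.

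Rpa1 and Rpa2 encode the large and middle subunits of RPA, the complex that coats single-stranded DNA in replication and in repair. Rpa1 CPM were 69.5, 71.4 and 65.4 in control, 71.6, 66.6 and 68.7 in FLExD/+, 49.6, 47.7 and 49.8 in moderate and 32, 36.9 and 36.9 in severe mice. Rpa2 CPM were 18.5, 20.7 and 18.1 in control, 19.2, 18.5 and 18.8 in FLExD/+, 11.2, 11.7 and 13.5 in moderate and 8.63, 8.61 and 8.74 in severe mice. Both were lower in all 6 mice of the models than in all 6 single-transgenic mice, with log2 fold changes in severe versus control of -0.96 ± 0.08 for Rpa1 and -1.14 ± 0.09 for Rpa2 (adjusted p = 7.1e-08 and 5.6e-08), but on library size alone these were 0.34 and 0.16. Expected counts of Rpa1 ran from 1342 to 1483 in control and from 1419 to 1564 in severe mice. In moderate mice Rpa2 was called lower (-0.66 ± 0.09, adjusted p = 3.4e-05), and Rpa1 missed the fold threshold (-0.49 ± 0.08, adjusted p = 1.2e-04). By TPM, Rpa1 was the most abundant of the 38 genes in control muscle and the fifth in severe muscle, where Pcna came first. The third subunit gene, Rpa3, had a log2 fold change of 0.67 ± 0.14 in severe mice.

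Of the 4 genes listed for the clamp loader, which opens PCNA onto DNA, Rfc3 and Rfc5 rose in both models, and Rfc2 and Rfc4 passed in neither. Rfc2 CPM were 10.6, 10.5 and 10.8 in control, 12.2, 11.7 and 10.6 in FLExD/+, 10.9, 10.2 and 9.76 in moderate and 12, 12.2 and 11.2 in severe mice. Rfc4 CPM were 6.01, 4.38 and 4.5 in control, 3.74, 4.26 and 4.68 in FLExD/+, 5.02, 5.07 and 6.27 in moderate and 4.6, 5.59 and 4.52 in severe mice. The severe Rfc2 values lay just above the controls and across the FLExD/+ range, and those of Rfc4 among them, with log2 fold changes in severe mice of 0.15 ± 0.09 (adjusted p = 0.14) and -0.02 ± 0.16 (adjusted p = 0.93). The Rfc4 value turned to 1.29 on library size alone, still under the median of all genes at that scaling. Rfc4 shares exon positions with Eif4a2 and Rfc2 with Lat2, both on the opposite strand, so their reads may not all be their own. Rfc5 had log2 fold changes of 0.77 ± 0.10 in moderate and 0.74 ± 0.10 in severe mice (adjusted p = 1.3e-05 and 7.5e-06), and Fen1, the flap nuclease, rose 1.43-fold and 2.94-fold.

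**Figure D4:**
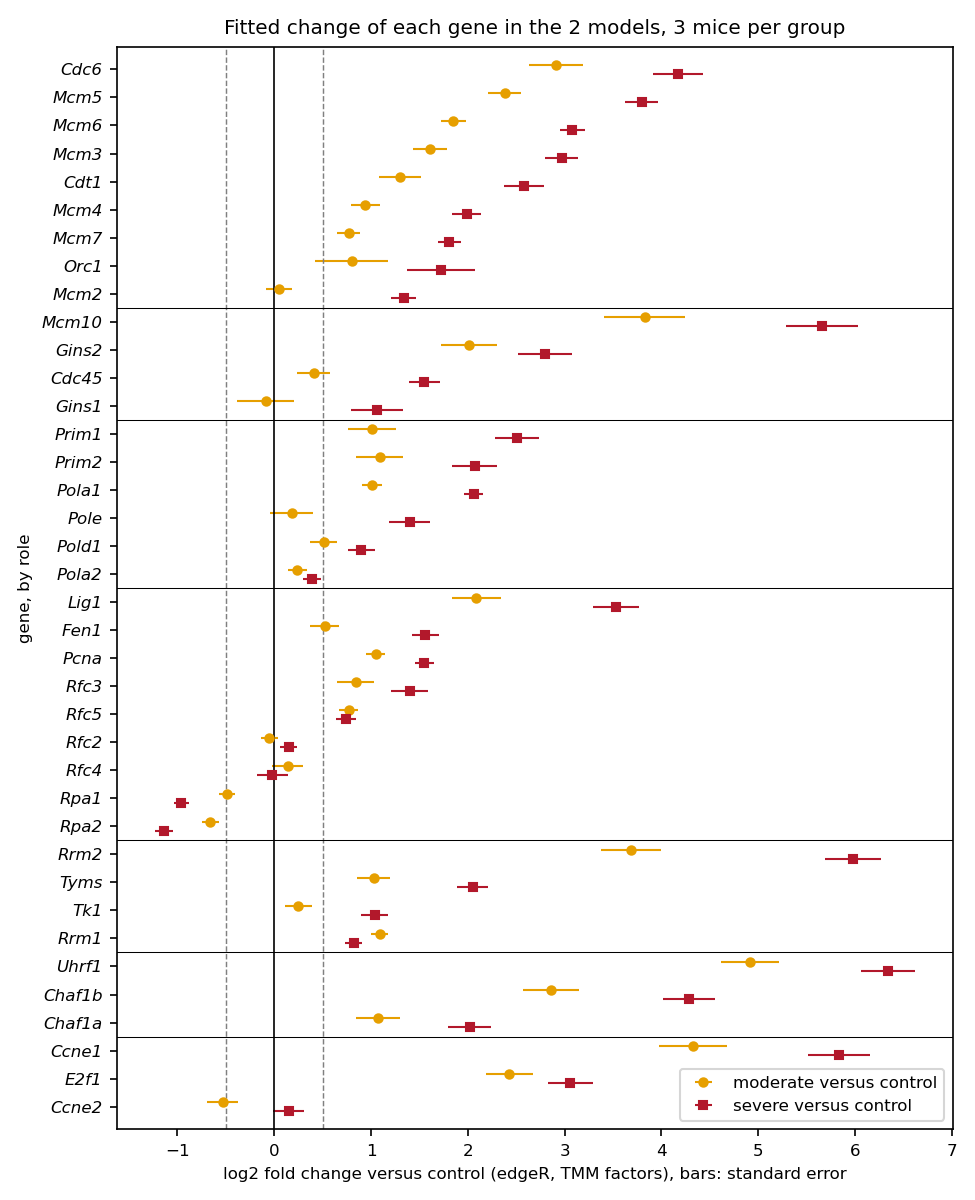
Log2 fold change versus control (horizontal axis, bars for 1 standard error, 3 mice per group) of each gene, grouped by role along the vertical axis, in moderate (circles) and severe (squares) mice with the fold threshold dashed. Severe values lie to the right of moderate values in most genes, from Uhrf1 at 6.34 down to Rpa2 at -1.14, while Rrm1, Rfc4, Rfc5, Rpa1 and Rpa2 lie lower in severe than in moderate mice.

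All 4 nucleotide synthesis genes rose in severe muscle (32.9% of all genes) and 3 in moderate (24.4%). In moderate mice Tk1, thymidine kinase, had a log2 fold change of 0.25 ± 0.14. Rrm2, the small subunit of ribonucleotide reductase made in S phase, had among the largest changes: its CPM were 0.622, 0.771 and 0.284 in control, 1.03, 0.942 and 0.53 in FLExD/+, 8.05, 5.07 and 8.58 in moderate and 40.2, 35.9 and 29.9 in severe mice. The groups of control, moderate and severe mice were each apart, with log2 fold changes of 3.69 ± 0.31 (SE) in moderate and 5.98 ± 0.29 in severe versus control mice (adjusted p = 5.5e-07 and 1.1e-09). Rrm1, the large subunit, was abundant in all groups: its CPM were 34.1, 33.1 and 29.6 in control, 34.5, 34.8 and 29.3 in FLExD/+, 71.8, 68 and 66.9 in moderate and 53.9, 59.8 and 56.8 in severe mice. On the TMM scale moderate mice were the highest group for Rrm1, with log2 fold changes of 1.09 ± 0.09 (SE) in moderate and 0.82 ± 0.09 in severe versus control mice (adjusted p = 2.3e-07 and 1.2e-06) and of -0.28 ± 0.09 in severe versus moderate mice, which was under the fold threshold and 0.42 on library size alone. The TPM ratio of Rrm1 to Rrm2 was 13.3 to 20.5 in control, 11.3 to 15.7 in FLExD/+, 4.71 to 7.41 in moderate and 0.832 to 1.16 in severe mice. Rrm2b, the alternative small subunit used outside S phase and in DNA repair, was at 13.9 to 24.5 times the TPM of Rrm2 in control and 0.199 to 0.374 times in severe mice. Tyms, thymidylate synthase, rose 2.04-fold and 4.14-fold.

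**Figure D5:**
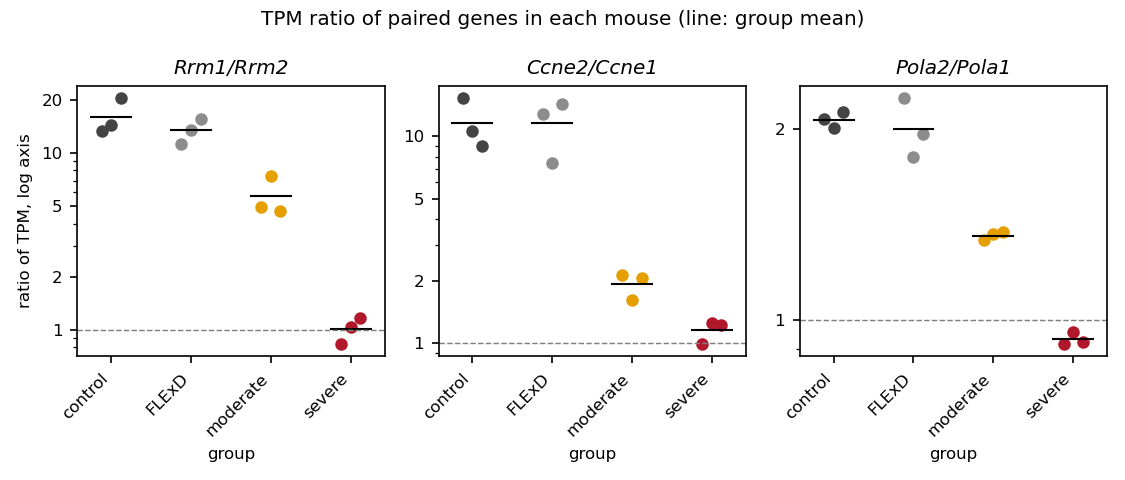
TPM ratios of Rrm1 to Rrm2, Ccne2 to Ccne1 and Pola2 to Pola1 (vertical axes, log scale) in each mouse by group (horizontal axes), with a line at the group mean and a dashed line at equal TPM. All 3 ratios are lower in each moderate and severe mouse than in each control mouse, and reach 1.01, 1.16 and 0.933 in severe mice. Some pairs that are not shown, such as Prim2 to Prim1, overlapped between control and severe mice.

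The 3 chromatin genes rose in both models, as did 24.4% of all genes in moderate and 32.9% in severe mice. Their median change was 7.25-fold in moderate and 19.6-fold in severe muscle. Uhrf1, which recruits the maintenance methyltransferase DNMT1 to newly copied DNA, had the largest fitted change of the 38 in either model: its CPM were 0.155, 0.434 and 0.284 in control, 0.492, 0.843 and 0.241 in FLExD/+, 8.99, 9.31 and 8.78 in moderate and 28.6, 24.2 and 19.8 in severe mice. Control libraries held 2.57 to 8.75 expected counts each, and the log2 fold changes were 4.92 ± 0.30 (SE) in moderate and 6.34 ± 0.28 in severe versus control mice (adjusted p = 2.1e-08 and 2.7e-10). Chaf1a, the large subunit of the histone chaperone CAF-1, changed least of the 3: its CPM were 1.97, 1.54 and 1.8 in control, 1.53, 2.23 and 2.17 in FLExD/+, 3.94, 4.55 and 2.64 in moderate and 8.32, 7.29 and 5.87 in severe mice. No moderate or severe mouse overlapped the controls, with log2 fold changes of 1.07 ± 0.23 (SE) in moderate and 2.02 ± 0.22 in severe versus control mice (adjusted p = 0.0014 and 1.6e-06). Chaf1b, in the same complex, rose 7.25-fold and 19.6-fold.

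Of the G1/S regulators, Ccne1 and E2f1 rose in both models and Ccne2 did not follow. Ccne1, cyclin E1, which drives entry to S phase with CDK2, was nearly absent from control muscle: its CPM were 0.0518, 0.145 and 0.0948 in control, 0.148, 0.198 and 0.0964 in FLExD/+, 2.08, 2 and 2.09 in moderate and 7.39, 5.19 and 5.02 in severe mice. The control libraries held 6 counts in all, and the ratio of summed counts was 21.0 (9.46 to 57.9) in moderate and 60.1 (27.5 to 164) in severe mice. Ccne2, cyclin E2, was well above Ccne1 in control muscle: its CPM were 5.54, 5.01 and 4.22 in control, 5.66, 4.66 and 5.16 in FLExD/+, 3.57, 2.86 and 3.79 in moderate and 6.38, 5.14 and 4.83 in severe mice. It was called lower in moderate versus control mice (-0.53 ± 0.16, adjusted p = 0.015, but 0.08 on library size alone), was at 0.15 ± 0.16 in severe versus control (adjusted p = 0.41) and was called higher in severe versus moderate (0.68 ± 0.16, adjusted p = 0.0026). The TPM ratio of Ccne2 to Ccne1 was 8.97 to 15.3 in control, 7.48 to 14.3 in FLExD/+, 1.62 to 2.13 in moderate and 0.993 to 1.26 in severe mice; the deposited TPM are above 0 even where counts are 0, so ratios to a gene with few counts understate the difference. E2f1, an activating member of the E2F family, rose 5.38-fold and 8.37-fold. Not every pair compared shifted. The TPM ratio of Prim2 to Prim1 was 0.8 to 1.2 in control and 0.772 to 0.95 in severe mice. That of Rpa1 to Rpa2 was 1.78 to 1.96 and 1.92 to 2.23, so both pairs overlapped. Severe values lay below all controls for Rfc5 to Rfc3, Chaf1a to Chaf1b and Pola2 to Prim1. For each TPM ratio the exact permutation test of 3 against 3 mice cannot give a two-sided p under 0.10, so no pair could reach the threshold alone.

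Genes at a low level in control muscle changed most. Among the 19 genes with the lower TPM in control mice (0.160 to 1.23), the median log2 fold change was 2.01 in moderate and 3.06 in severe muscle, and among the other 19 (1.24 to 22.9) it was 0.41 and 1.04. Control levels enter both sides of this comparison, so it is given as a description. Summed over the 38 genes, TPM were 113 to 120 in control, 111 to 131 in FLExD/+, 223 to 242 in moderate and 484 to 629 in severe mice. TPM carry no TMM factors, so these sums are not on the scale of the CPM changes. On log2(TPM + 0.1), fitted with limma, the median log2 fold change of all genes tested was 0.43 in moderate and 1.11 in severe mice. Within the severe group, mouse 1047 was the highest for 25 of the 38 genes and mouse 1079 the lowest for 32, with median log2 differences from the control mean of 2.11 and 1.69. Mouse 1066 was at 1.92, so each severe mouse was above each moderate mouse, which were at 0.94 to 1.00.

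Of the other genes of the pathway, 71 in all and all tested, 34 rose and 9 fell in moderate (24.4% and 17.0% of all genes), and 42 rose and 10 fell in severe versus control mice (32.9% and 27.9%). On library size alone 53 and 65 were called higher, against 52.5% and 75.4% of all genes at that scaling. The genes called lower there were E2f6 and Shmt1 in moderate and E2f6 in severe mice, against 4.51% and 6.42% of all genes. With TMM factors the severe counts were 20 higher and 1 lower of 33 other replication genes, 6 and 3 of 9 other nucleotide supply genes, 13 and 5 of 22 other G1/S genes, and 3 and 1 of 7 CDK inhibitors. Ticrr, which helps to fire origins, had 3 counts over the control mice and a ratio of 74.0 (25.2 to 360) in severe mice, and Clspn, a fork checkpoint mediator, had a log2 fold change of 5.29 ± 0.31. Pold2, a subunit of polymerase delta, was the lowest of the replication list at -0.86 ± 0.10 (0.44 on library size alone). Dctd and Dck, which supply deoxynucleotides, had 2.08 ± 0.26 and 2.03 ± 0.16. The nucleotide genes called lower in severe mice were Rrm2b at -1.23 ± 0.12, Shmt1 at -0.88 ± 0.14 and Dguok, a mitochondrial kinase, at -0.55 ± 0.13, and all 3 were above 0 on library size alone (0.07, 0.43 and 0.75).

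Among G1/S genes, E2f8, a repressive E2F that is itself induced in S phase, had 5 counts over the control mice and a ratio of 147 (62.8 to 453) in severe mice. Ccna2, cyclin A2, had a log2 fold change of 6.28 ± 0.25. E2f6, another repressive E2F, fell: its CPM were 141, 136 and 118 in control, 148, 144 and 125 in FLExD/+, 48.6, 56.8 and 54.0 in moderate and 19.1, 23.3 and 26.1 in severe mice. Its log2 fold change in severe mice was -2.52 ± 0.12, and -1.23 on library size alone. Rbl2, the pocket protein of quiescent cells, was at -1.36 ± 0.08 (-0.06 on library size alone), and Fbxw7, which targets cyclin E for destruction, at -1.06 ± 0.10 (0.24 on library size alone). Tfdp2 and E2f3 were also called lower, at -0.79 ± 0.22 and -0.53 ± 0.12, and were at 0.51 and 0.78 on library size alone.

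With TMM factors, CDK inhibitors, which hold back the cell cycle, did not move together. On library size alone, all 7 were called higher in severe versus control mice, as were 75.4% of all genes. Cdkn1a (p21) CPM were 2.59, 0.915 and 1.33 in control, 1.23, 1.44 and 1.30 in FLExD/+, 9.87, 8.79 and 10.5 in moderate and 16.5, 11.9 and 13.3 in severe mice. Cdkn1c (p57) CPM were 11.6, 13.7 and 13.2 in control, 13.3, 10.5 and 12.9 in FLExD/+, 29.7, 17.4 and 26.0 in moderate and 103, 71.4 and 99.7 in severe mice. These rose by log2 fold changes of 3.12 ± 0.25 and 2.83 ± 0.20 in severe mice, with no overlap with the controls. Cdkn2a, which was at 0 counts in each control library, was at 0.812, 0.684 and 0.652 CPM in severe mice, at least 4.86-fold higher than the level of 3 counts per control library, and at 1 to 4 counts in moderate mice. Cdkn1b (p27) CPM were 30.4, 25.7 and 26.9 in control, 25, 24.4 and 27.3 in FLExD/+, 13.6, 13.1 and 13.6 in moderate and 15.9, 16 and 16.5 in severe mice. It was called lower in severe mice at -0.78 ± 0.08, but was at 0.53 and called higher on library size alone. Cdkn2b, Cdkn2c and Cdkn2d were at 0.61 ± 0.33, 0.12 ± 0.20 and 0.14 ± 0.17 in severe mice and did not pass. On library size alone they were at 1.91, 1.42 and 1.44 and were called higher. Cdkn2c was called lower in moderate mice at -0.56, but was at 0.05 and not called on library size alone.

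Markers of several cell types also differed between the groups, in both directions, and their part in these results was not tested. Of all genes, 24.4% were called higher and 17.0% lower in moderate mice, and 32.9% and 27.9% in severe mice. Summed CPM of 6 muscle fiber genes were 203000 to 279000 in control, 183000 to 246000 in FLExD/+, 92600 to 115000 in moderate and 23600 to 36700 in severe mice, with 5 of 6 called lower in moderate and 6 of 6 in severe mice. Of 5 satellite cell and myoblast genes, 3 rose in moderate and 5 in severe mice, where their sum was 83.7 to 102 CPM against 22.6 to 24.6 in control, 19.5 to 27.6 in FLExD/+ and 33.0 to 45.6 in moderate mice. The 4 macrophage genes analysed all rose in both models, with sums of 55.7 to 71.6 in control, 56.9 to 66.2 in FLExD/+, 228 to 276 in moderate and 484 to 526 CPM in severe mice. Sums of 3 neutrophil genes were 0.984 to 1.25, 1.21 to 1.54, 2.81 to 4.29 and 6.69 to 8.30 CPM in the same order, with 1 and 2 genes called higher in moderate and severe mice. Of 4 T cell genes, 2 were tested and Cd4 alone rose in severe mice, from a mean of 0.166 to 2.68 CPM. Sums of the 4 were 0.466 to 0.819 in control and 2.43 to 3.96 CPM in severe mice, mostly through Cd4. Cd3e and Cd3g were too low to test, at 5 or fewer counts per library. Their means in control and severe mice were 0.228 and 0.0705 CPM for Cd3e, and 0.0158 and 0.102 CPM for Cd3g. The 3 B cell genes were too low to test, at sums of 0.193 to 0.427 in control and 0.118 to 0.290 CPM in severe mice. All 4 endothelial genes were called lower in severe mice with TMM factors (138 to 155 CPM in control and 60.4 to 71.7 in severe mice), but on library size alone only Kdr was, at -1.08, and Pecam1 was called higher at 0.70. Both erythroid genes analysed fell in severe mice (51.6 to 57.6 and 4.15 to 12.4 CPM), also on library size alone. Of 3 fibro-adipogenic genes 1 was higher and 1 lower, and all 3 were higher on library size alone. At that scaling 75.4% of all genes were called higher in severe mice. No marker of these cell types was at 0 throughout a group. In whole muscle, more cells of a dividing type and more of these transcripts per cell cannot be told apart, nor can fewer fibers and less RNA per fiber. All 12 libraries had Xist at 128 to 379 CPM and Y-linked genes at or near 0, so this check of sex gave the same answer in all groups. The level of Xist did differ, at 138 to 173 CPM in control, 186 to 223 in moderate and 247 to 379 in severe mice.

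Some values carry more uncertainty than their errors state. RSEM divides reads that fit several genes, and the expected counts of 9 of the 38 genes were over 0.05 from a whole number in each of the 12 libraries. Exons of 14 of the 38 overlap those of a neighbor, among them Cdc45 with Ufd1, Fen1 with Tmem258, Gins2 with Gse1, Lig1 with Zswim9, Tk1 with Afmid, Chaf1a with Ubxn6, Rfc5 with Wsb2 and Ccne2 with Ints8. Use of strand in counting is not given in the sources used here, so reads of such pairs cannot be told apart. The mice are separate animals, and 3 per group set the precision of each value.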

How the data were processed

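Per the labels, the submitters' processing notes and the study's methods, the authors aligned single-end reads to mm10 with TopHat2 2.0.8b and Bowtie and deposited RSEM 1.2.4 expected counts and TPM per gene and mouse. Here each expected count was rounded before all 12 libraries were fitted together with edgeR 4.0.16 (robust quasi-likelihood test, TMM factors, filterByExpr; R 4.3.3), with Benjamini-Hochberg adjustment over the 16679 genes kept. Genes were called at an adjusted p under 0.05 and a log2 fold change of at least 0.5 either way. Deposited TPM were used for levels between genes, shares and ratios, and limma 3.58.1 on log2(TPM + 1) and log2(TPM + 0.1) and DESeq2 1.42.0 on the rounded counts were alternatives. The fitting script was tested on simulated data. Depth was 23796902 to 29136403 counts per mouse, and 3 counts are worth 0.0676 to 0.155 CPM; intervals on count ratios are exact, at 95%, and cover counting error only. Other alternatives were median-of-ratios factors, library size with and without the 20 most abundant genes, other filters and thresholds, fits of 2 groups and leaving out each mouse. Exact permutation tests of TPM ratios were two-sided.

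Groups came from the labels, with 1 library per mouse, so p-values measure the spread between these mice. The 38 genes and all other lists were chosen with earlier results of these data known. Values per mouse are given, in each role, for the genes with the largest and smallest severe change, for the gene with the highest mean TPM, and for genes called lower in a comparison or called in neither model. Of other pathway genes, all CDK inhibitors and all genes called lower in severe mice are named. So are the 2 with the largest and the 1 with the lowest severe change in each list. Rpa3, Orc2 to Orc6, Gins3 and Gins4 were added after their values were seen. Overlapping exons were read from GENCODE M21 on GRCm38. The marker genes Adgre1 and Hbb-bt were not analysed here.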

Additional observations from a re-analysis of the deposited data

How the results depend on the processing

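Without one mouse at a time, the number of the 38 genes called higher ranged from 24 to 27 in moderate, 32 to 32 in severe and 26 to 31 in severe versus moderate mice, and the median log2 fold changes from 0.93 to 1.01, 1.78 to 1.98 and 0.95 to 1.11. The number called lower ranged from 1 to 3 in moderate versus control, with 1 without moderate mouse 1308. In severe versus moderate mice it ranged from 0 to 2, with 2 without moderate mouse 1308 and 1 without moderate mouse 1236, severe mouse 1066 or severe mouse 1079. Among the other settings, the number called lower in moderate mice was 0 with library size alone, library size without the 20 top genes, both limma fits, a log2 fold change of at least 1 and the fold in every pair of mice, and 1 with no filter, with at least 10 counts in every sample and at an adjusted p under 0.01. In severe versus control mice it was 0 with library size alone and both limma fits, and 1 with library size without the 20 top genes and a log2 fold change of at least 1. It was 3 in severe versus moderate mice with no fold threshold.

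The median log2 fold change was 1.61, 3.21 and 1.74 on library size alone in the moderate, severe and severe versus moderate comparisons, and 1.32, 2.51 and 1.34 on library size without the 20 top genes. It was 0.82 in moderate and 1.34 in severe versus moderate mice with limma on log2(TPM + 1), and 1.24, 2.70 and 1.68 in the same 3 comparisons with limma on log2(TPM + 0.1). With at least 10 counts in every sample, which leaves 30 of the 38 genes, it was 0.86 in moderate and 1.66 in severe mice.

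Of the single-gene values, 59 changed sign, most of them under the threshold on both sides. On library size alone these were Gins1 (0.51), Rfc2 (0.56), Rpa1 (0.12) and Ccne2 (0.08) in moderate, Rfc4 (1.29), Rpa1 (0.34) and Rpa2 (0.16) in severe, and Rfc4 (0.55), Rfc5 (0.67), Rrm1 (0.42), Rpa1 (0.22) and Rpa2 (0.21) in severe versus moderate mice. For the same 12 values in the same order, limma on log2(TPM + 1) gave 0.23, 0.36, 0.02 and 0.13, then 0.86, 0.24 and 0.09, then 0.42, 0.67, 0.43, 0.23 and 0.26, and limma on log2(TPM + 0.1) gave 0.36, 0.41, 0.02 and 0.16, then 0.98, 0.25 and 0.10, then 0.47, 0.72, 0.44, 0.23 and 0.28. On library size without the 20 top genes they were Gins1 (0.22) and Rfc2 (0.26) in moderate, Rfc4 (0.59) in severe, and Rfc4 (0.15), Rfc5 (0.27) and Rrm1 (0.02) in severe versus moderate mice. Values near 0 turned with no filter for Rfc2 (0.01), Rfc4 in severe (0.08) and Rfc5 in severe versus moderate mice (0.01), with at least 10 counts in every sample for the same values (0.0, 0.10 and 0.03), and with DESeq2 for Rfc4 in severe mice (0.0). Without one mouse at a time, values on both sides of 0 were those of Mcm2 (-0.03 to 0.11), Gins1 (-0.27 to 0.03), Pole (-0.04 to 0.32) and Rfc4 (-0.01 to 0.27) in moderate, Rfc4 (-0.12 to 0.13) in severe and Rfc5 (-0.07 to 0.01) in severe versus moderate mice. Another 2617 values kept direction and side of the threshold, 82 newly passed it and 68 no longer did. Beyond the scaling itself, the cause was not tested. No paired analysis was possible because the groups share no replicate numbers. Depth limits the genes with few control counts, whose ratios carry wide intervals.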

Other observations

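Among the other G1/S genes, some were singled out after their values were seen. Rb1, the retinoblastoma protein that holds E2F factors inactive, had CPM of 15.2, 18.1 and 16.7 in control, 17.3, 17.1 and 17.9 in FLExD/+, 133, 116 and 137 in moderate and 78.3, 89.7 and 98.7 in severe mice. All mice of the models lay above all others, and moderate mice were the highest, with edgeR log2 fold changes of 2.95 ± 0.11 in moderate and 2.41 ± 0.11 in severe versus control mice, and of -0.53 ± 0.10 in severe versus moderate mice (0.16 on library size alone). Its relative Rbl1 was at 0.80 ± 0.13 and 2.08 ± 0.13 in moderate and severe mice, while Rbl2 was at -1.07 ± 0.08 and -1.36 ± 0.08. Skp2, which targets p27 for destruction, was at 3.25 ± 0.14 and 3.60 ± 0.14, Cdk6 at 3.61 ± 0.30 and 4.51 ± 0.29 and Ccnd1, cyclin D1, at 1.87 ± 0.21 and 2.43 ± 0.21. From the other replication genes, Dbf4, the activator of the origin-firing kinase CDC7, was singled out likewise, at 2.24 ± 0.25 and 3.91 ± 0.23. Of the other G1/S genes, Ccnd2, cyclin D2, was called in neither model (0.14 ± 0.19 and -0.19 ± 0.19), and E2f3 was called lower in both (-0.56 ± 0.12 and -0.53 ± 0.12). On library size alone Ccnd2 was called higher in both models (0.75 and 1.12), as were 52.5% and 75.4% of all genes. At that scaling E2f3 was at 0.05 and not called in moderate mice, and at 0.78 and called higher in severe mice.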
